A study of Arabidopsis lyrata with 3 samples.

Results

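Of the 14977 SEPALLATA3 (SEP3) windows that scored at least 1.5 in the replicate 2 ChIP-seq library of Arabidopsis lyrata inflorescences, 637 overlapped no window of any score in the replicate 1 library. These 637 windows, 4.25% of the 14977, are called replicate 2 only windows here. The 14340 that overlapped a replicate 1 window by at least 1 bp are called partnered windows. Both libraries were made by chromatin immunoprecipitation and sequencing. The peptide antibody was made for A. thaliana SEP3 and also recognises the A. lyrata homolog. The only input DNA library was labelled as replicate 1, so replicate 2 had no input of its own. All plants were wild type, carried floral buds of stage 1 to 10 or 11, were vernalised for 7 to 10 weeks and bolted at 18 to 22 °C in long days. The replicate 2 plants were chilled at 8 °C in the day and 4 °C in the night, under 12 h light and 12 h dark, whereas the replicate 1 and input plants were chilled at 8 °C under 16 h light and 8 h dark. With 1 ChIP library per cold regime, library and regime cannot be told apart, and no test between them was possible.

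SEP3 is a MADS-domain transcription factor that acts in floral meristems and in developing floral organs. It assembles with other MADS-domain proteins, among them APETALA1, PISTILLATA and AGAMOUS, into tetramers that hold pairs of CArG boxes, the short AT-rich elements such factors recognise. SEP3 sites are commonly found in the promoters and introns of floral genes. No expression values are part of the window lists, so the tissue was not checked against marker genes.

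Each window carried a position on the build the files call Araly1, a summit and the authors' score, a value per window with no stated formula. The replicate 2 list held 64504 windows with a median score of 1.2 and covered 7.78% of 9 scaffolds. The replicate 1 list held 93693 windows with a median score of 1.42 and covered 20.2%. Of the replicate 2 windows that scored under 1.5, 31.9% had no replicate 1 partner, and of the whole replicate 2 list 25.5% had none. In the other direction, 12127 of 41044 replicate 1 windows of score 1.5 or more (29.5%) met no replicate 2 window. Read depth is unknown, and scores of the libraries need not share a scale. Intervals given for shares and medians cover counting error over windows only, and neighbouring windows are not independent.

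Replicate 2 only windows were chosen by their replicate 2 score and by the lack of a replicate 1 partner, so these values are descriptions. Most were weak. Their median score was 1.62 (95% interval 1.62 to 1.68), against 1.81 for partnered windows. At the lower limit, 160 windows scored exactly 1.5, with a median width of 279 bp, and the 4 lowest scores, up to 1.58, held 271 of the 637 (42.5%). Just below the limit, 205 windows without a partner scored 1.44 and 5 scored 1.45 or 1.46; the 205 had a median width of 262 bp. The upper end was long. Replicate 2 only windows of score 3 or more numbered 80, and 9 of them scored 10 or more. The window of highest score in the whole replicate 2 list, at 73.31, was one of them.

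The share of replicate 2 windows without a partner was lowest in the middle of the score range, not at its top. It was 489 of 9947 (4.92%, 95% Wilson interval 4.51 to 5.36%) at scores from 1.5 to under 2, and 68 of 3324 (2.05%, 1.62 to 2.59%) from 2 to under 3. From 3 to under 5 it was 46 of 1196 (3.85%, 2.90 to 5.09%). From 5 to under 10 it was 25 of 345 (7.25%, 4.96 to 10.5%), and at 10 or more 9 of 165 (5.45%, 2.90 to 10.04%). The interval of the class from 2 to under 3 overlapped none of the others.

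**Figure D1:**
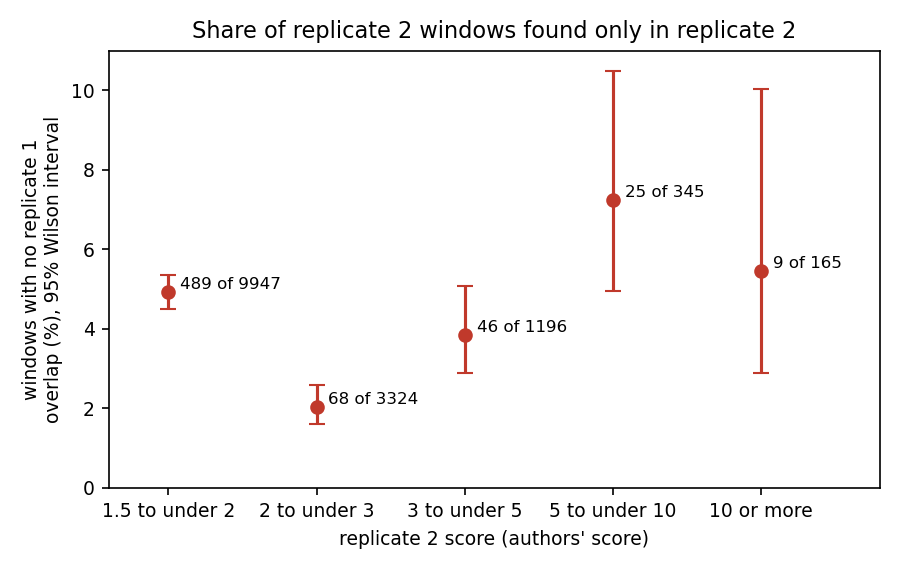
Share of replicate 2 windows that overlapped no replicate 1 window (vertical axis, percent) in 5 classes of the authors' score (horizontal axis). Points are shares with 95% Wilson intervals, labelled with the counts; the share was 2.05% at scores from 2 to under 3 and 7.25% from 5 to under 10.

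The 10 highest-scoring replicate 2 only windows all lay outside annotated genes. The window of score 73.31 lay on scaffold 6 from 17177792 to 17178185 and was 394 bp wide. Its nearest replicate 1 window stood 1043 bp away with a score of 1.89, and on the other side no replicate 1 window was listed for 36824 bp. Its summit was 48507 bp from LOC110227742 on one side and 29947 bp from LOC9310542 on the other. The tenth window, with a score of 9.98 and a width of 151 bp, was its close neighbour, from 17178408 to 17178558. The next in score, at 25.66, lay on scaffold 2 from 8288470 to 8288820, with the nearest replicate 1 window 8905 bp away at a score of 1.12. Its summit was 11636 bp from LOC110230955, a long non-coding RNA gene, and 15648 bp from LOC9322888. The same space between genes held the fourth, of score 14.54, from 8298411 to 8298558. That one was 594 bp from the same replicate 1 window and 5733 bp from LOC9322888.

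The third window, of score 14.74, lay on scaffold 5 from 7556954 to 7557054. It was 101 bp wide and stood 5758 bp from a replicate 1 window of score 1.68. The nearest genes were LOC110228490, 68762 bp away, and LOC110228491, 1705818 bp away, so it lay in a very long stretch without annotated genes. A pair lay near the end of scaffold 3. The window from 24354504 to 24354611 scored 12.85 and lay 410 bp from a replicate 1 window of score 1.11, with the long non-coding RNA gene LOC110230180 at 7898 bp and LOC110230178 at 38729 bp. The window from 24325966 to 24326424 scored 12.3 and had no replicate 1 window within 18769 bp. It was the only one of the 10 with a summit within 1000 bp of a gene, 809 bp from the pseudogene LOC110230176.

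Scaffold 9, the shortest, held the windows from 1624858 to 1625168, of score 11.39, and from 1657487 to 1657728, of score 10.9. Their nearest replicate 1 windows were 6396 bp away with a score of 2.6 and 4135 bp away with a score of 1.49. The first had LOC9299297, a long non-coding RNA gene, at 6747 bp and the transfer RNA gene TRNAL-UAG at 10748 bp. The second had the transfer RNA gene TRNAR-ACG at 5888 bp and LOC9299384 at 2761 bp. The remaining window, of score 10.96, lay at the start of scaffold 4 from 3022 to 3131, before the first replicate 1 window, which was 1360 bp away, and 23772 bp before LOC9318218. None of the 10 therefore stood beside a strong replicate 1 window, as the neighbours scored 1.05 to 2.6.

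The nearest replicate 1 window stood a median of 475 bp from a replicate 2 only window (95% interval 428 to 569 bp). Its median score was 1.34, near the 1.42 of the whole replicate 1 list. Of the 637, 458 (71.9%) had none within 200 bp, 215 (33.8%) none within 1000 bp and 44 (6.91%) none within 10000 bp. The 80 of score 3 or more were farther off, with a median of 1337 bp (680 to 2020 bp), against 440 bp (375 to 488 bp) for the 557 that scored less. Around the 79 of these 80 with a replicate 1 window on both sides, the stretch free of such windows was 12969 bp long at the median. Around 556 of the weaker ones it was 3103 bp. The rule admits only windows that lie between replicate 1 windows, so it favours long stretches and larger distances. Stretches over the whole replicate 1 list were not measured. Whether such stretches include unresolved bases of the assembly was not tested.

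Replicate 2 only windows were narrow, and the strong ones were not wider than the weak. Their median width was 274 bp (95% interval 260 to 285 bp), against 468 bp (464 to 472 bp) for partnered windows. A narrow window has less chance to meet another, so the rule itself favours narrow ones. The gap was larger at higher scores. At scores from 5 to under 10 the medians were 151 bp for the 25 replicate 2 only windows and 665 bp for the 320 partnered ones, and at 10 or more 242 and 711 bp. Across windows, Spearman's rho between score and width was -0.08 for the 637 and 0.44 for the 14340, which share 1 library and 1 score scale. At scores of 3 or more the contrast was smaller, with rho of 0.02 for the 80 replicate 2 only windows and 0.12 for the 1626 partnered ones. A width of 150 bp or less was found in 36 of the 80 replicate 2 only windows of score 3 or more (45%, 34.6 to 55.9%), against 15 of the 1626 partnered windows of that score (0.923%, 0.560 to 1.52%). A summit within 10% of the window's length from either end occurred in 40 of 637 (6.28%), against 153 of 14340 (1.07%).

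**Figure D2:**
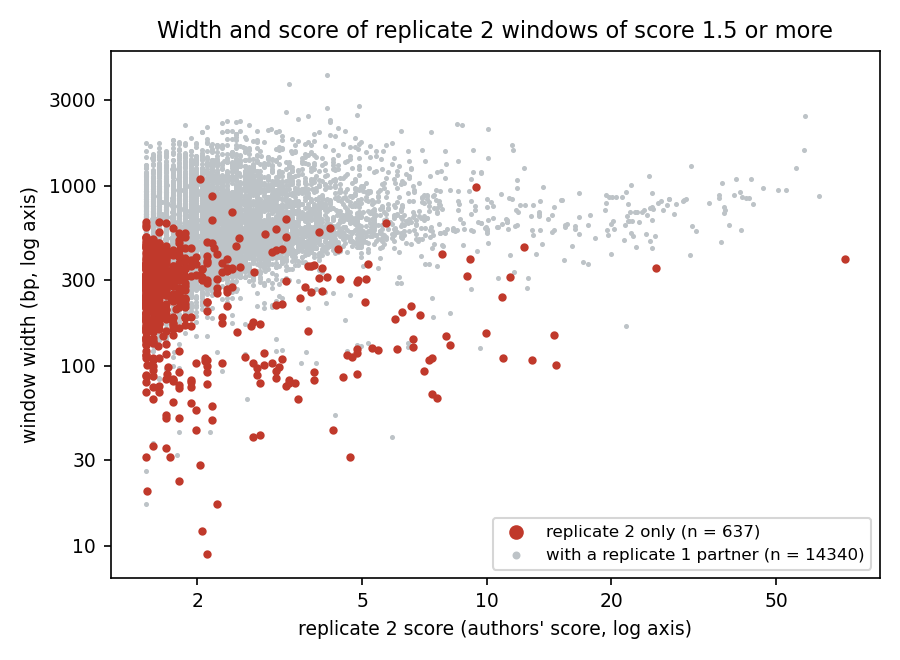
Width in bp (vertical log axis) against the authors' score (horizontal log axis) of each replicate 2 window of score 1.5 or more; red points are the 637 replicate 2 only windows, grey points the 14340 partnered ones. Above a score of 5 most red points lie below the grey cloud, with median widths of 151 against 665 bp at scores from 5 to under 10.

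Some replicate 2 only windows gathered in small groups, but most stood alone. With summits within 10000 bp joined, the 637 fell into 522 places, of which 464 held 1 window and 58 held more. Another replicate 2 only window lay within 10000 bp of 173 of the 637 (27.2%, 23.8 to 30.7%), whereas a replicate 2 only window lay that near to 838 of the 14340 partnered ones (5.84%, 5.47 to 6.24%). Windows of any kind were not found near them more often: another replicate 2 window of score 1.5 or more lay within 10000 bp of 77.7% of the replicate 2 only windows and of 85.01% of the partnered ones. At scores of 3 or more these shares were 87.5% (78.5 to 93.1%) and 84.7% (82.9 to 86.4%). A replicate 2 only window lay near 54 of the 80 of score 3 or more (67.5%, 56.6 to 76.8%), 119 of the 557 weaker ones (21.4%, 18.2 to 24.96%) and 141 of the 1626 partnered windows of score 3 or more (8.67%, 7.40 to 10.1%). The 10 places with at least 5 windows held 33 of the 80 (41.2%) and 32 of the 557 (5.75%).

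The largest place lay on scaffold 2 from 8756928 to 8780369 and held 12 replicate 2 only windows, with scores from 1.5 to 6.02. They alternated with 16 replicate 2 windows of any score that did overlap replicate 1 windows and scored up to 14.56, while the 16 replicate 1 windows there scored at most 4.47. Windows covered 31.5% of the place in replicate 2 and 6.88% in replicate 1. The protein-coding gene LOC9324403 and the transfer RNA gene TRNAW-CCA lay inside it, and TRNAM-CAU and TRNAF-GAA flanked it at 7122 and 7756 bp. Replicate 1 windows were thus listed across this place.

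Scaffold 3 held the second and the third largest places, both close to its end. The place from 24411162 to 24430985 held 8 replicate 2 only windows with scores from 1.5 to 8.15 and a median width of 99 bp. It had 1 replicate 2 window that met replicate 1, of score 5.89, and 2 replicate 1 windows, which scored at most 1.02. It overlapped the transcribed pseudogene LOC110230174, with LOC110230178 and LOC110230177 at 17325 and 1751 bp. The place from 24343989 to 24357154 held 7 with scores from 2.11 to 12.85, beside 4 that met replicate 1 and scored up to 8.27 and replicate 1 windows of at most 1.95. It overlapped LOC110230180, and its flanking genes LOC110230176 and LOC110230178 stood 18743 and 36106 bp away.

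The fourth place differed from these. On scaffold 5 from 1143242 to 1151439, it held 7 windows that all scored 2.03 or less, had a median width of 307 bp and lay inside the pseudogene LOC9311226. All 14 replicate 2 windows of this place lacked a partner, they covered 44.2% of it, and no replicate 1 window was listed there. LOC9311223 and LOC110228466 flanked it at 1519 and 8450 bp. The fifth place, on scaffold 5 from 7550702 to 7574441, held 6 windows with scores from 1.51 to 14.74 and no gene. Its single replicate 1 window scored 1.68, and LOC110228490 and LOC110228491 stood 62456 and 1688385 bp away. The window of score 73.31 belonged to the sixth place, from 17175450 to 17178781 on scaffold 6, with 5 replicate 2 only windows, no partnered window and no replicate 1 window.

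**Figure D3:**
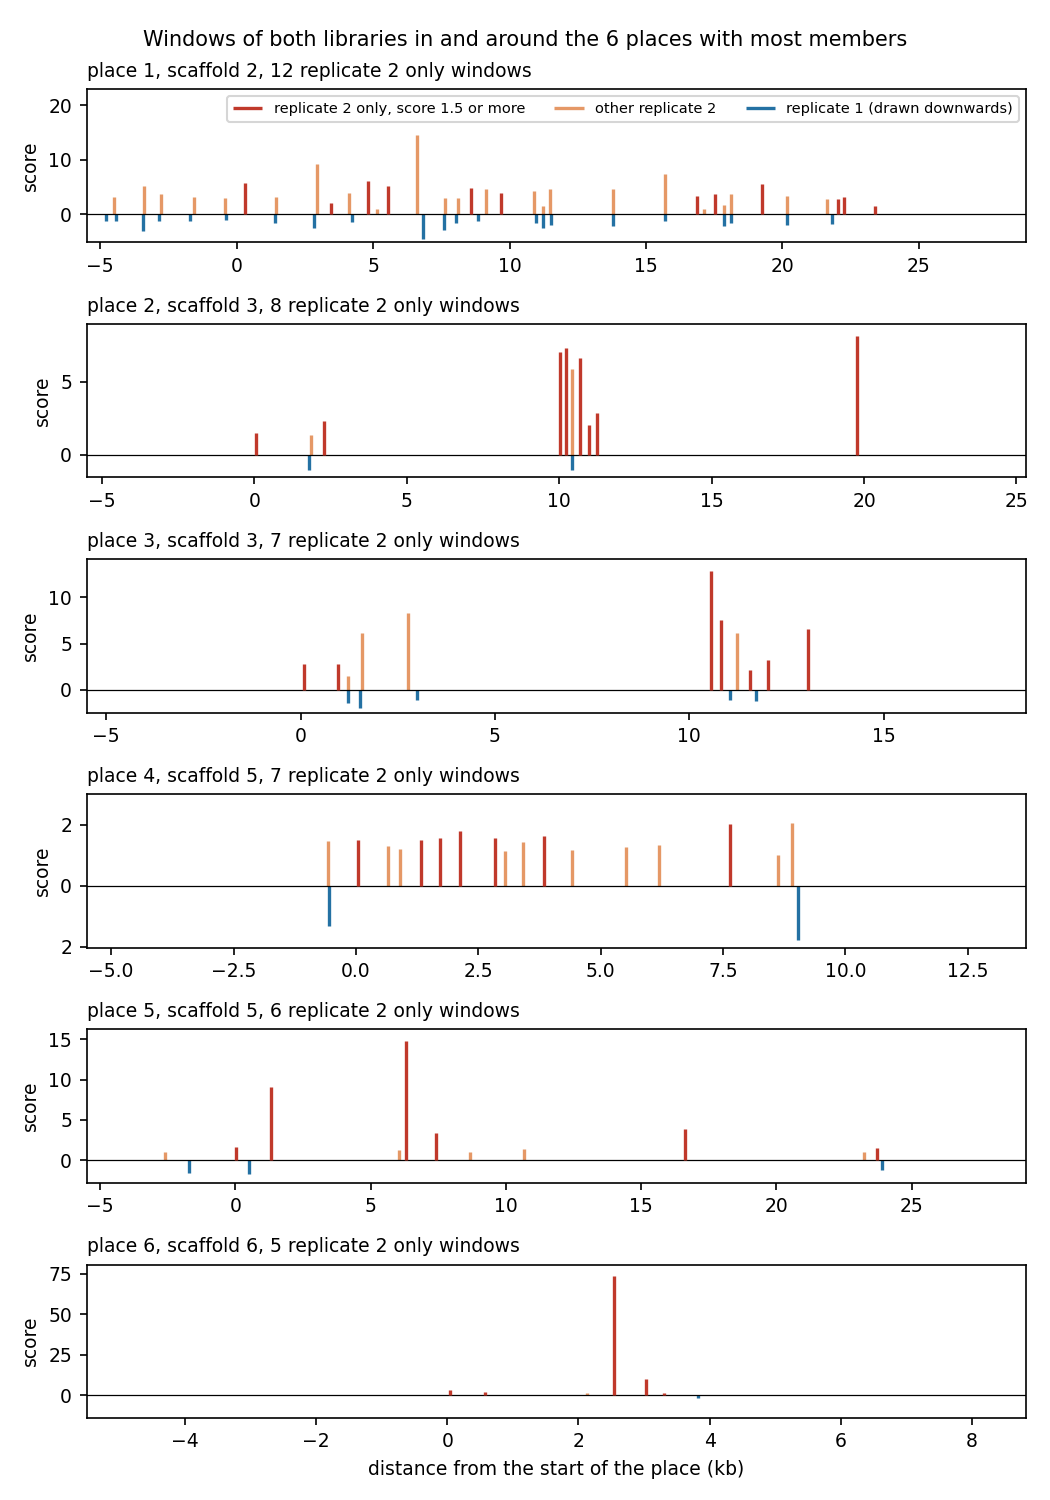
Windows in and within 5 kb of the 6 places with most replicate 2 only windows, by distance from the start of the place in kb; line height is the authors' score, upwards for replicate 2 (red, replicate 2 only of score 1.5 or more; orange, other replicate 2 windows) and downwards for replicate 1 (blue), each line at the middle of its window. Scores reach 73.31 in place 6, and replicate 1 windows inside the places score at most 4.47.

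All 9 scaffolds held replicate 2 only windows, from 14 on scaffold 9 to 94 on scaffold 5. As a share of the replicate 2 windows of score 1.5 or more they ranged from 3.18% on scaffold 1 (82 of 2582, 2.57 to 3.92%) to 11.5% on scaffold 9 (14 of 122, 6.96 to 18.3%), and were 5.49% on scaffold 5 (4.51 to 6.67%). Per Mb they numbered 2.48 on scaffold 1, 4.43 on scaffold 5 and 7.44 on scaffold 9. Of the 80 of score 3 or more, 24 lay on scaffold 2, 13 on scaffold 3, 11 on scaffold 6 and 2 on scaffold 1, the longest. Of 191 stretches of 1 Mb with any replicate 2 window of score 1.5 or more, 30 held at least one of the 80. The 7 picked for holding at least 3 of them contained 48. The stretch from 8 to 9 Mb of scaffold 2 held 15, that from 9 to 10 Mb held 6, and the end of scaffold 3 beyond 24 Mb held 10. In that last stretch 23 of 42 replicate 2 windows (54.8%) had no partner. Some summits lay within 100000 bp of position 1 or of the last window end of a scaffold. They made up 2.83% of the replicate 2 only windows (18 of 637), against 0.662% of the partnered ones (95 of 14340). Of the 18, 8 belonged to the place from 24411162 to 24430985 and 3 to one from 24371707 to 24372285, both on scaffold 3.

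Weak and strong replicate 2 only windows lay differently relative to genes. The RefSeq gene table used names no scaffolds. They were inferred from blocks of rising position in it, on the assumption that windows and genes use the same assembly. Summits lay inside an annotated gene in 226 of 637 cases (35.5%, 31.9 to 39.3%), against 3047 of 14340 partnered windows (21.2%, 20.6 to 21.9%). Genes covered 41.2% of the scaffolds. The excess over partnered windows came from scores under 2, where 208 of 489 (42.5%) were inside genes, against 20.9% of partnered windows. At scores of 3 or more it was 7 of 80 (8.75%, 4.30 to 17.0%), against 365 of 1626 partnered windows (22.4%, 20.5 to 24.5%). The classes within this range differed: from 3 to under 5 it was 1 of 46 (2.17%, against 23.04%), from 5 to under 10 it was 6 of 25 (24%, against 23.4%), and at 10 or more 0 of 9, against 16.03%.

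**Figure D4:**
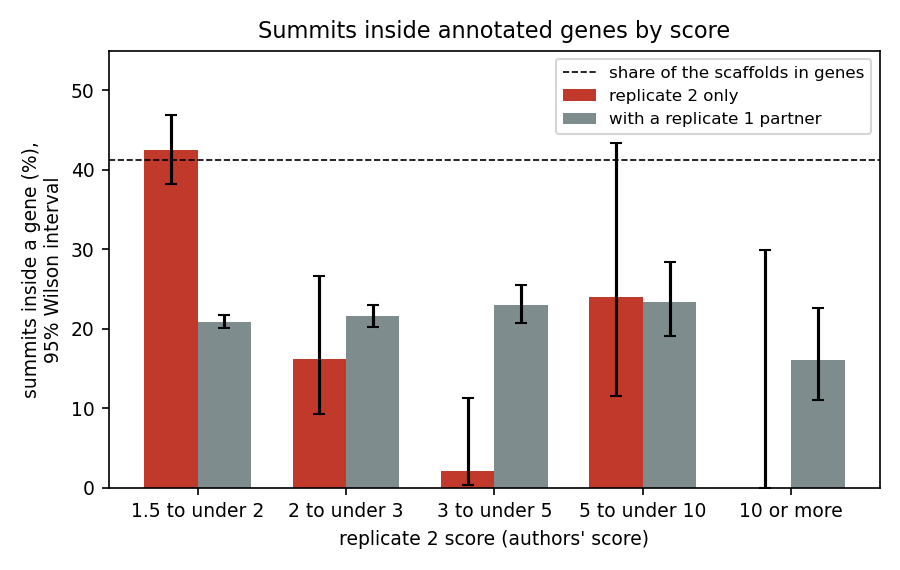
Share of summits inside annotated genes (vertical axis, percent) by class of the authors' score, red bars for replicate 2 only windows and grey bars for partnered windows, with 95% Wilson intervals; the dashed line is the 41.2% of the scaffolds that lies in genes. The red bar is 42.5% at scores from 1.5 to under 2, 16.2% from 2 to under 3, 2.17% from 3 to under 5, 24% from 5 to under 10 and 0 above.

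The strong windows outside genes were also far from them. More than 3000 bp separated 54 of the 80 summits (67.5%, 56.6 to 76.8%) from the nearest gene, against 273 of 1626 partnered ones (16.8%, 15.1 to 18.7%). More than 10000 bp separated 25 of the 80 (31.2%), against 45 of the 1626 (2.77%). Only 6 of the 80 (7.5%) lay outside genes within 1000 bp of one, where 604 of the 1626 (37.1%) lay. The spaces between genes that held these strong summits were 18540 bp long at the median (17494 to 27283 bp), and those of the partnered ones 6251.5 bp (5715 to 6711 bp). Without scaffold 2, 38 of the remaining 56 (67.9%) lay more than 3000 bp from a gene, 26 (46.4%) were 150 bp wide or less and 33 (58.9%) had another replicate 2 only window within 10000 bp.

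The 226 summits inside genes fell in 211 genes, and 195 of the 226 (86.3%) were in protein-coding genes. That share was not set against partnered summits inside genes or against all genes. Most genes held 1. LOC9311226 held the 7 described above, LOC9322903, a protein-coding gene on scaffold 2, held 4 with scores up to 5.28, and 8 genes held 2 each. The genes with a window inside were 2984 bp long at the median, against 2014 bp for all genes on the scaffolds. A longer gene has more chance to hold a summit, so choosing genes this way itself favours long ones. The nearest gene of all 637 summits was protein-coding in 487 cases (76.5%), against 89.4% for partnered windows. It was a long non-coding RNA gene in 83 (13.03%, against 6.81%) and a pseudogene, transcribed or not, in 41 and 10 (6.44 and 1.57%, against 2.91 and 0.146%).

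Transfer RNA genes stood near some of the strong windows. One lay within 10000 bp of 16 of the 80 (20%, 12.7 to 30.05%), against 43 of the 557 weaker replicate 2 only windows (7.72%, 5.78 to 10.2%) and 133 of the 1626 partnered windows of score 3 or more (8.18%, 6.94 to 9.61%). This rested on scaffold 2: without it the count was 2 of 56 (3.57%), against 91 of 1432 (6.35%). The partnered share fell as well, and shares on scaffold 2 alone were not computed. Of the 528 transfer RNA genes on the scaffolds, 19 were within 10000 bp of a strong replicate 2 only window. These included both TRNAS-GGA genes of the 9 scaffolds and 2 of the 3 TRNAT-GGU genes. Totals on the scaffolds were counted for no other type of transfer RNA gene.

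The 19 genes stood in 3 runs. The first, on scaffold 2 across 59.3 kb that includes the largest place, read TRNAM-CAU, TRNAW-CCA, TRNAF-GAA, TRNAT-UGU, TRNAS-GGA, TRNAM-CAU, TRNAG-GCC, TRNAT-GGU, TRNAD-GUC and TRNAC-GCA. The second, also on scaffold 2 across 54.3 kb, read TRNAT-GGU, TRNAG-GCC, TRNAM-CAU, TRNAS-GGA, TRNAT-UGU, TRNAF-GAA and TRNAM-CAU. The third was TRNAN-GUU and TRNAR-ACG on scaffold 9. The same gene table lists 37 transfer RNA genes of the plastid genome, the DNA of the chloroplast, in order of position. By amino acid alone, 9 of the 10 genes of the first run followed the plastid order read backwards, and all 7 of the second followed it read forwards. Read the other way, 4 genes of each of these 2 runs could be matched in order. The 2 genes of the third run could be matched in either direction, so that run does not tell the directions apart. No chance value was computed. Plastid names in the table give no anticodon, and other genes may lie between those matched. From the first gene to the last of each run, with 10000 bp on either side, the first run held 11 replicate 2 only windows of score 3 or more (3.15 to 6.02), the second held 3 (4 to 7.24) and the third held 2 (7.36 and 10.9). The window of score 7.36 lay within TRNAN-GUU. Partnered windows of score 3 or more in the runs were not counted. In the largest place, inside the first run, 16 replicate 2 windows of any score had a partner and scored up to 14.56. Lying in such a run was thus not particular to replicate 2 only windows. The part of plastid-like DNA in windows of either kind was not tested.

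Windows found in both libraries scored higher in replicate 2 more often near strong replicate 2 only windows than far from them. The comparison took each replicate 2 window with a partner and the highest-scoring replicate 1 window it overlapped. Distances ran from windows chosen for a high replicate 2 score and no replicate 1 partner, so the rule may favour this pattern. With replicate 2 windows of any score, and within 2000 bp of a replicate 2 only window of score 3 or more, replicate 2 scored higher in 29 of 48 pairs (60.4%, 46.3 to 73.0%), with median scores of 2.58 in replicate 2 and 1.71 in replicate 1. From there to 10000 bp it did so in 45 of 115 pairs (39.1%, 30.7 to 48.3%), with medians of 1.44 in replicate 2 and 1.87 in replicate 1. Farther off, up to 50000 bp, the share was 71 of 520 (13.7%, 11.0 to 16.9%), and beyond that 4144 of 47385 (8.75%), with medians of 1.26 in replicate 2 and 2.2 in replicate 1. The median log2 difference, replicate 2 minus replicate 1, was 0.53 (-0.17 to 0.96), -0.39 (-0.59 to -0.13), -0.61 and -0.71 in these 4 distance classes. Only within 2000 bp was the median above 0, and its interval included 0. Since the scores of the libraries need not share a scale, 0 does not mark equal binding. Nor does a higher score in replicate 2 mark stronger binding there. Only the change with distance can be read.

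A floor of 1.5 on the replicate 2 score, with none on replicate 1, raised the share at every distance, since it keeps pairs for a high replicate 2 score. With that floor, replicate 2 scored higher in 28 of 36 pairs within 2000 bp (77.8%, 61.9 to 88.3%) and in 38 of 53 from there to 10000 bp (71.7%, 58.4 to 82.03%). The share was 43 of 158 up to 50000 bp (27.2%, 20.9 to 34.6%) and 2232 of 14093 beyond (15.8%, 15.2 to 16.4%). The median log2 differences were 0.92, 0.94, -0.41 and -0.53, so between 2000 and 10000 bp the value and its sign depended on the floor.

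**Figure D5:**
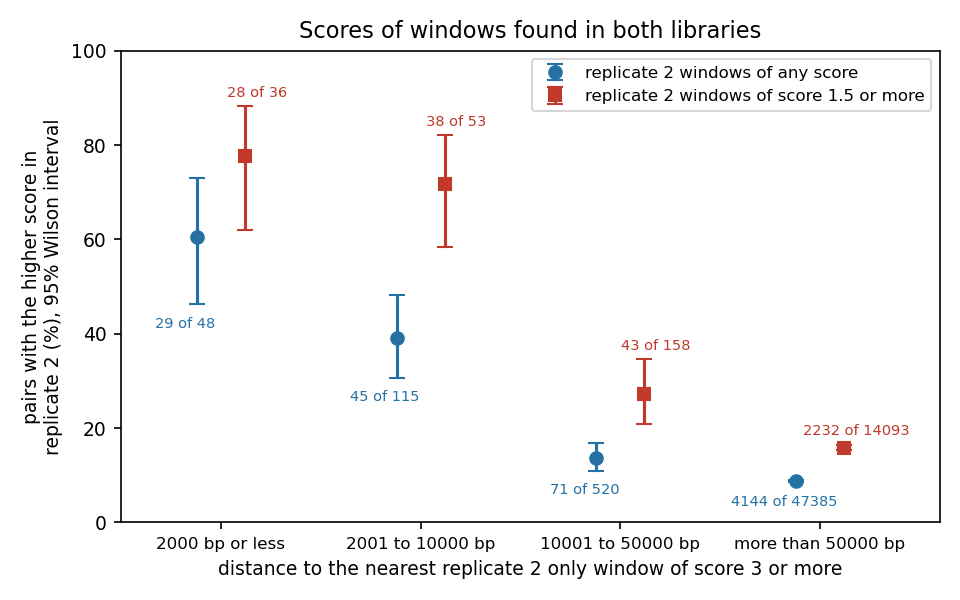
Share of windows found in both libraries that scored higher in replicate 2 than in replicate 1 (vertical axis, percent) by distance to the nearest replicate 2 only window of score 3 or more (horizontal axis), for replicate 2 windows of any score (blue) and of score 1.5 or more (red). Points carry 95% Wilson intervals and counts; within 2000 bp the shares were 60.4 and 77.8%, beyond 50000 bp 8.75 and 15.8%.

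Scaffold 2 supplied much of this. Within 10000 bp and at any score, replicate 2 was higher in 74 of 163 pairs (45.4%, 37.9 to 53.1%) on all scaffolds, and in 28 of 98 (28.6%, 20.6 to 38.2%) without scaffold 2, where 8.76% were so beyond 50000 bp. With the floor of 1.5 the counts were 66 of 89 (74.2%) on all scaffolds and 23 of 40 (57.5%, 42.2 to 71.5%) without scaffold 2, against 15.7% beyond 50000 bp. By scaffold, again with the floor, replicate 2 was higher in 43 of 49 pairs on scaffold 2, 8 of 11 on scaffold 3, 6 of 6 on scaffold 9, 3 of 5 on scaffold 8, 2 of 2 on scaffold 4 and 1 of 2 on scaffold 5. It was higher in 2 of 8 on scaffold 6, 1 of 4 on scaffold 7 (medians of 1.8 in replicate 2 and 2.91 in replicate 1) and 0 of 2 on scaffold 1 (1.715 in replicate 2 and 3.31 in replicate 1).

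Near replicate 2 only windows of any score the differences between distances were smaller. At any score of the pair, replicate 2 was higher in 96 of 474 pairs within 2000 bp (20.3%, 16.9 to 24.1%), against 3098 of 36517 (8.48%, 8.20 to 8.77%) beyond 50000 bp. With the floor of 1.5 it was 72 of 180 (40%, 33.1 to 47.3%), against 1640 of 10802 (15.2%, 14.5 to 15.9%). Replicate 2 windows that either had a partner or scored under 1.5 were also counted. Within 2000 bp 265 of 739 of them lacked a partner (35.9%, 32.5 to 39.4%), against 11883 of 48400 (24.6%, 24.2 to 24.9%) beyond 50000 bp. Lack of a partner also chose the windows that distance was counted from, so the rule may favour this difference.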

How the data were processed

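The deposited window lists of SEP3 ChIP replicates 1 and 2 were used. Each gives, per the file headers, a scaffold, start, end, summit position, length in bp (end minus start plus 1) and a score for each window. The score is the authors' deposited value per library; for its formula, the aligner, the caller, the control and any threshold, the authors' choices are not stated in the labels or headers. The submitters' processing notes name CASAVA. The input library and the A. thaliana list were not used here.

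Overlap meant at least 1 shared bp. Summits within 10000 bp were joined into places. Shares carry 95% Wilson intervals, and medians 95% binomial order-statistic intervals. Since members were chosen from the lists, no test was run. Gene positions came from a RefSeq table of assembly v.1.0, in which blocks of rising start were taken as scaffolds 1 to 9 (33239 of 34221 genes; last gene and last window of each within 31587 bp). Named items were the 10 windows of highest score, the 5 places with most windows (the sixth was added for its score) and their neighbouring genes. Members, lists, the score limit of 3 and the transfer RNA and paired-score comparisons were chosen with earlier results of these data known. Steps were tested on simulated intervals. Python 3.11.15, numpy 2.4.6, pandas 2.3.3, scipy 1.17.1 and matplotlib 3.10.9 were used.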

Additional observations from a re-analysis of the deposited data

How the results depend on the processing

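The count of 637 windows follows its limits: it was 148 at a minimum score of 2, 80 at 3, 458 without those within 200 bp of a replicate 1 window, 215 without those within 1000 bp, and 1637 where only replicate 1 windows of score 1.5 or more counted as partners. In the order 2, 3, 1000 bp and partners of 1.5 or more, the places numbered 91, 50, 174 and 1353, and the median width was 222.5, 195, 238 and 303 bp. The share inside genes was 12.2, 8.75 and 22.8% in the first 3, and 30.6% with protein-coding genes alone. The median score was 3.09, 4.70 and 1.81 in the first 3. The share on scaffold 5, 14.8% in the report's setting, was 12.2% at 2, 10% at 3 and 12.03% with partners of 1.5 or more. The share with another replicate 2 only window near, counting only windows kept, was 55.4% at 2, 53.8% at 3 and 32.1% at 1000 bp, and with other joining distances it was 21.7% at 5000 bp and 32.3% at 20000 bp. Some of these moves follow from the settings themselves. A higher minimum score lowers the count and raises the median score, and a longer joining distance raises the share joined. The cause of the other moves was not tested. Leaving out scaffold 2, chosen after the data were seen, gave 564 windows and moved none of the 6 values recomputed outside its limits. Leaving out a library was not run, since choosing the windows needs both lists. No paired analysis was possible because each cold regime has 1 ChIP library and the input has no window list here. Without read depths, what a deeper replicate 1 library would add was not assessed.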
